A study of Mus musculus with 5 samples.

Results

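The respiratory chain subunits described here are the nuclear genes whose symbols begin with Nduf followed by a, b, c, s or v and a digit, with Uqcr, with Cox and a digit from 4 to 8, or with Atp5. Symbols of pseudogenes (holding "-ps") were left out. This rule took 80 of the 32285 genes in the deposited matrices. By complex, 35 genes belonged to complex I, 8 to complex III, 20 to complex IV (with Ndufa4 and Ndufa4l2 counted there) and 17 to complex V. The rule used symbols only and no measured value. All 80 genes had a place on 1 of 19 chromosomes in the annotation used for positions, and all 80 had at least 1 count in some nucleus.

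The counts came from single-nucleus RNA sequencing of 5 white adipose depots, made to survey cell types across depots. The mice were 10-week-old males on chow, perfused with heparin in phosphate-buffered saline. The protocol gives the strain as C57BL/6J, while the strain field reads C57BL/7J for the mesenteric sample, C57BL/8J for the perirenal sample and C57BL/9J for the peri-heart sample. The depots were subcutaneous (SWAT, tissue of 6 mice pooled), epididymal (EWAT, 6 mice), mesenteric (MWAT, 10 mice), perirenal (NWAT, 6 mice) and peri-heart (HWAT, 20 mice). SWAT and MWAT were freed of lymph nodes. Each depot was 1 pooled library, so depot and library cannot be told apart and no test between depots is given. Intervals in brackets are 95% Poisson or binomial intervals of counting error only.

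Complexes I, III and IV pass electrons from NADH to oxygen and pump protons across the inner mitochondrial membrane, and complex V, the ATP synthase, uses that gradient to make ATP. Each is assembled from subunits encoded in the nucleus and a few encoded in mitochondrial DNA (the mt- genes). Brown adipocytes are rich in these complexes and carry Ucp1, which lets protons back in without making ATP, while white adipocytes hold fewer mitochondria. Several complex IV subunits exist as a ubiquitous isoform and a second one used mainly in heart, skeletal muscle or brown fat.

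The libraries held 12324 to 19770 barcodes and 23313545 to 43855063 UMIs (unique molecular identifiers, counts of single RNA molecules), and 11093 to 16641 nuclei per library were kept. Across libraries 598 barcode sequences occurred in more than 1. The subunits took 1.11% (NWAT) to 2.15% (MWAT) of the UMIs of kept nuclei. Cell classes were rebuilt from marker genes and carry the ending "-like". Of 38 clusters, 6 could not be named and held 2.63% of NWAT to 24.5% of HWAT nuclei. Adipocyte-like nuclei numbered 5832 in SWAT, 8149 in EWAT, 3574 in MWAT, 6110 in NWAT and 1864 in HWAT, and all 8 adipocyte markers were detected in each depot, at 9086 to 11540 CPM (counts per 1000000 UMIs of the class) in sum. Most adipocyte-like nuclei of a depot lay in a cluster of their own: 7186 of the EWAT nuclei, 4867 of SWAT, 4804 of NWAT, 2871 of MWAT and 1787 of HWAT, each in a different cluster. Such a cluster may mark the library as much as a kind of adipocyte. The name of the HWAT cluster depended on doublet removal. With predicted doublets kept, a cluster of 1844 nuclei, 1785 of them adipocyte-like here, had a mean log2 excess of 2.64 for cardiomyocyte markers and 1.80 for adipocyte markers and would be named cardiomyocyte-like. With doublets removed the excess of adipocyte markers was 1.17, and plasma cell markers came next at 0.62. The median depth of these nuclei was 2083.5 UMIs in SWAT, 2506 in EWAT, 1473.5 in MWAT, 3265 in NWAT and 1872 in HWAT.

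In adipocyte-like nuclei the respiratory chain subunits were highest around the heart and lowest around the kidney. Together they made up 3.53% of UMIs in HWAT (35322 CPM), 1.71% in MWAT (17135 CPM), 1.43% in SWAT (14301 CPM), 1.21% in EWAT (12079 CPM) and 0.934% in NWAT (9341 CPM). Of the 78 subunits with at least 20 counts over the adipocyte-like nuclei of all depots, 74 had their highest CPM in HWAT, 3 in SWAT and 1 in MWAT. The lowest depot was NWAT for 52 subunits, EWAT for 24 and MWAT for 2. NWAT, the depot with the most UMIs per nucleus, was thus the lowest, and MWAT, with the fewest, was second highest. The part of depth in this order was not tested. The 2 subunits outside the count minimum were Cox7b2 and Cox8c, isoforms known from testis, with 0 counts in adipocyte-like nuclei.

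Depot differences below compare a gene's log2 CPM in 1 depot with the average of its log2 values in the remaining 4, after 0.5 counts were added. In HWAT the median over 78 subunits was 1.48, against -0.23 over all 16708 genes. TMM scaling moved the latter to 0.04 and the subunits to 1.75. A 2-fold or larger excess in HWAT was seen for 68 of 78 subunits, against 13.3% of all genes, and none was 2-fold lower, against 19.8% of all genes. In NWAT the median was -0.85, with 32 subunits 2-fold lower against 11.5% of all genes and 1 higher against 4.18%. In EWAT the median was -0.52, with 5 lower against 5.22% of all genes and 0 higher against 7.36%. SWAT and MWAT lay near the middle, with medians of -0.15 and 0.10. In SWAT 2 subunits were 2-fold higher and 1 lower, where 4.99% and 6.81% of all genes were. In MWAT none was 2-fold higher and 1 lower, where 11.1% and 4.55% of all genes were. HWAT enters the reference of every other depot. With HWAT left out, the medians were 0.20 in SWAT, -0.19 in EWAT, 0.49 in MWAT and -0.50 in NWAT. Fewer subunits were then 2-fold lower in NWAT.

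**Figure D1:**
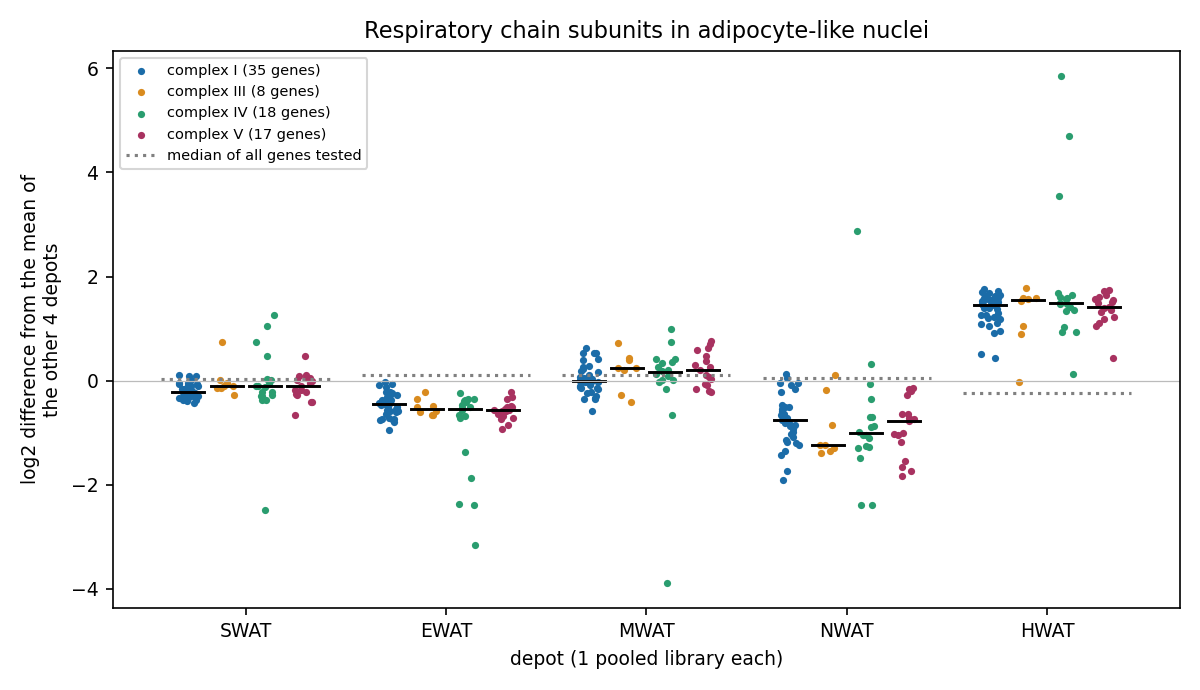
Each dot is 1 of 78 respiratory chain subunit genes in adipocyte-like nuclei, plotted as its log2 difference from the mean of the other 4 depots and coloured by complex. Black bars are the medians per complex and dotted lines the median of all genes. All 4 complexes lie above the dotted line in HWAT and below it in NWAT and EWAT.

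The direction was shared by the 4 complexes. Complex I, the NADH dehydrogenase where electrons enter, summed to 4959 CPM in SWAT, 4481 in EWAT, 5821 in MWAT, 3578 in NWAT and 12188 in HWAT. Its HWAT median was 1.44, with 31 of 35 subunits 2-fold higher, and its NWAT median was -0.76, with 10 lower. Complex I subunits with the most counts in adipocyte-like nuclei were Ndufb9 and Ndufb8, both accessory subunits of the membrane arm. Ndufb9 stood at 264 CPM in SWAT, 246 in EWAT, 270 in MWAT, 241 in NWAT and 769 in HWAT. The first 4 depots were close together and HWAT was 2.85-fold [2.67 to 3.03] above the next, MWAT. Ndufb8 stood at 244 CPM in SWAT, 286 in EWAT, 249.6 in MWAT, 194 in NWAT and 717 in HWAT, where it was 2.51-fold [2.39 to 2.62] above EWAT. Ndufb5, another membrane-arm subunit, had the largest HWAT difference of complex I (1.77). The accessory subunits Ndufa1 (-1.91) and Ndufa3 (-1.74) had the largest NWAT deficits. For Ndufa1 the levels were 172 CPM in SWAT, 147 in EWAT, 242 in MWAT, 59.4 in NWAT and 405 in HWAT.

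Ndufs1 and Ndufs4 were among the complex I subunits that were not 2-fold higher in HWAT, and are named after their values were seen. Ndufs1, the largest core subunit and a carrier of iron-sulfur clusters, stood at 81.4 CPM in SWAT, 64.1 in EWAT, 69.9 in MWAT, 72.7 in NWAT and 97.5 in HWAT, a HWAT difference of 0.44. Its HWAT level was 1.20-fold [1.06 to 1.35] above SWAT. Ndufs4, an accessory subunit of the electron-input module, had a HWAT difference of 0.52.

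Complex III hands electrons from ubiquinol to cytochrome c. Its 8 subunits summed to 1512 CPM in SWAT, 1181 in EWAT, 1834 in MWAT, 867 in NWAT and 3654 in HWAT, and 6 of them were 2-fold higher in HWAT (median 1.55). In NWAT 5 of the 8 were 2-fold lower (median -1.23). Uqcr11, a small accessory subunit, stood at 307 CPM in SWAT, 269 in EWAT, 371 in MWAT, 154 in NWAT and 783 in HWAT. Uqcrb, which lies at the ubiquinone site, stood at 281 CPM in SWAT, 212 in EWAT, 380.3 in MWAT, 141 in NWAT and 814 in HWAT. Both had the same order of depots, with HWAT 2.11-fold [1.99 to 2.24] and 2.14-fold [2.02 to 2.26] above MWAT. Uqcrfs1, the Rieske iron-sulfur subunit that carries out the electron transfer, departed most from the HWAT excess. It stood at 104 CPM in SWAT, 60.9 in EWAT, 103 in MWAT, 34.8 in NWAT and 67.8 in HWAT, where its difference was -0.02, the lowest of all 78 subunits in that depot.

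Complex IV, cytochrome c oxidase, reduces oxygen to water. Its subunits summed to 4701 CPM in SWAT, 4020 in EWAT, 5685 in MWAT, 2840 in NWAT and 12234 in HWAT. In HWAT 15 of 18 subunits tested were 2-fold higher (median 1.48), and in NWAT 9 were lower and 1 higher (median -1.01). Cox8a, the ubiquitous isoform of the smallest subunit, stood at 763 CPM in SWAT, 724 in EWAT, 1005 in MWAT, 520 in NWAT and 2033 in HWAT. Cox4i1, the common isoform of the regulatory subunit 4, stood at 580 CPM in SWAT, 554 in EWAT, 618 in MWAT, 460 in NWAT and 1537 in HWAT. Ndufa4, once assigned to complex I and now counted in complex IV, stood at 505 CPM in SWAT, 506 in EWAT, 753 in MWAT, 305 in NWAT and 1574 in HWAT. HWAT stood above MWAT, the next depot, by 2.02-fold [1.95 to 2.10] for Cox8a, 2.49-fold [2.38 to 2.60] for Cox4i1 and 2.09-fold [2.01 to 2.18] for Ndufa4.

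Complex V subunits summed to 3128 CPM in SWAT, 2396 in EWAT, 3795 in MWAT, 2056 in NWAT and 7246 in HWAT. In HWAT 16 of 17 were 2-fold higher (median 1.41), and in NWAT 8 were 2-fold lower (median -0.77). Atp5e, the epsilon subunit of the rotor stalk, stood at 275 CPM in SWAT, 209 in EWAT, 381 in MWAT, 98.9 in NWAT and 710.0 in HWAT. Its NWAT difference of -1.84 was the largest deficit of complex V. Atp5l, subunit g of the membrane part, stood at 236 CPM in SWAT, 196 in EWAT, 292 in MWAT, 147 in NWAT and 599.6 in HWAT. Atp5o, the subunit that joins the stator to the catalytic head, had the largest HWAT difference of complex V, 1.74. Atp5a1, the alpha subunit of the catalytic head, was the exception at 0.43. Its level was 162 CPM in SWAT, 110 in EWAT, 130.0 in MWAT, 82.8 in NWAT and 158 in HWAT, so that SWAT and HWAT did not differ beyond counting error (ratio 0.979 [0.892 to 1.07]).

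The mt- encoded partners and an unrelated abundant class of transcripts moved with the subunits. The 13 mt- genes summed to 6368 CPM in SWAT, 2584 in EWAT, 5582 in MWAT, 4540 in NWAT and 17566 in HWAT. Their median difference was 1.62 in HWAT, with 11 of 13 genes 2-fold higher, and -1.30 in EWAT, with 11 lower. The mt- genes of highest CPM were mt-Co1, mt-Cytb and mt-Co3. For mt-Co1, a catalytic subunit of complex IV, the levels were 1538 CPM in SWAT, 629 in EWAT, 1321 in MWAT, 849 in NWAT and 4090.1 in HWAT. For mt-Cytb, the core of complex III, they were 1239 CPM in SWAT, 532 in EWAT, 1189 in MWAT, 1095 in NWAT and 4404 in HWAT. EWAT was the lowest depot for both, whereas NWAT was the lowest for most nuclear subunits. In EWAT 4.67 nuclear subunit counts were found per mt- count, against 2.01 in HWAT, 2.06 in NWAT, 2.25 in SWAT and 3.07 in MWAT. The 77 cytosolic ribosomal protein genes, which have no part in respiration, summed to 10865 CPM in NWAT, 14323 in EWAT, 15732 in SWAT, 23018 in MWAT and 56202 in HWAT, and all 77 were 2-fold higher there (median 1.89). The part of this broader excess of short, abundant transcripts in the subunits' HWAT level was not tested.

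Other mitochondrial lists showed smaller HWAT differences than the subunits. The median was 1.08 for 13 enzymes of the tricarboxylic acid cycle (7 of them 2-fold higher) and 0.95 for 78 mitochondrial ribosomal proteins (33 higher, 1 lower). It was 0.91 for the 4 subunits of complex II (2 higher), the succinate dehydrogenase that has no mt- partner. It was 1.02 for 4 genes outside the symbol rule, namely the chain components Ndufab1, Cyc1 and Cycs and the inhibitor Atpif1 (2 higher). Among 46 assembly factors tested, the proteins that build the complexes but do not stay in them, the median was 0.51, with 10 higher and 4 lower. The 12 genes of mitochondrial DNA expression had a median of 0.12, with 1 higher. In NWAT the same lists had medians of -0.10 for the cycle enzymes, -0.31 for the mitochondrial ribosome, -0.17 for complex II and -0.17 for the assembly factors, against -0.85 for the subunits. These lists differ in abundance and gene length, and the differences between lists were not tested.

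Gene length moved with the depot differences in NWAT, HWAT and MWAT, and little in SWAT and EWAT. Over the 78 subunits the Spearman correlation of gene length with the difference was 0.47 in NWAT, -0.45 in HWAT and -0.34 in MWAT. It was 0.05 in SWAT and 0.09 in EWAT. These are descriptions across genes that share their libraries. The 26 shortest subunit genes (up to 4.68 kb) had a median of -1.17 in NWAT and 1.58 in HWAT. The 26 longest (8.93 kb or more) had -0.49 and 1.19. In NWAT and HWAT the sign was the same in both groups, and the shorter genes lay farther from 0. In EWAT the medians of the shorter and longer genes were close, at -0.55 and -0.54.

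The HWAT excess was uneven among its adipocyte-like nuclei. There were 4 sub-clusters, from a clustering that left out the subunits and the mt- genes. The largest, with 1157 nuclei, gave 2.37% of its UMIs to the subunits, 1.04% to mt- genes and 4.20% to ribosomal proteins, with Ucp1 at 13.1 CPM. A sub-cluster of 283 nuclei led by Ucp1 (1445 CPM) gave 4.95% to the subunits, 2.34% to mt- genes and 4.22% to ribosomal proteins. A sub-cluster of 346 nuclei gave 6.47% to the subunits, 3.86% to mt- genes and 12.4% to ribosomal proteins. Its leading genes were immunoglobulin and haemoglobin genes with Myl7 and Tnnt2, which are cardiomyocyte markers, its haemoglobin sum was 3521 CPM against 248 in the largest sub-cluster, and its median depth was 1118 UMIs against 1911. A sub-cluster of 78 nuclei led by Fos gave 2.97% to the subunits. Even the largest sub-cluster thus lay above the 0.934% to 1.71% of the other depots.

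The HWAT median of 1.48 was 1.33 without the Ucp1-led sub-cluster, 1.18 without the haemoglobin-high one and 0.89 without both. With nuclei limited to at most 2% mitochondrial UMIs in all depots it was 0.91. In each of these settings fewer subunits were 2-fold higher than in the full sums. In the other depots nuclei led by the same haemoglobin genes formed a separate unnamed cluster outside the adipocyte-like class, with 27 HWAT nuclei. The HWAT class sum thus holds a haemoglobin-high sub-cluster, while the haemoglobin-led cluster of the other depots lay outside their sums. Beside haemoglobin the leading genes differed, with immunoglobulin genes, Myl7 and Tnnt2 in HWAT and Fasn and Scd1 in the unnamed cluster. Whether these are the same kind of nuclei was not tested.

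**Figure D2:**
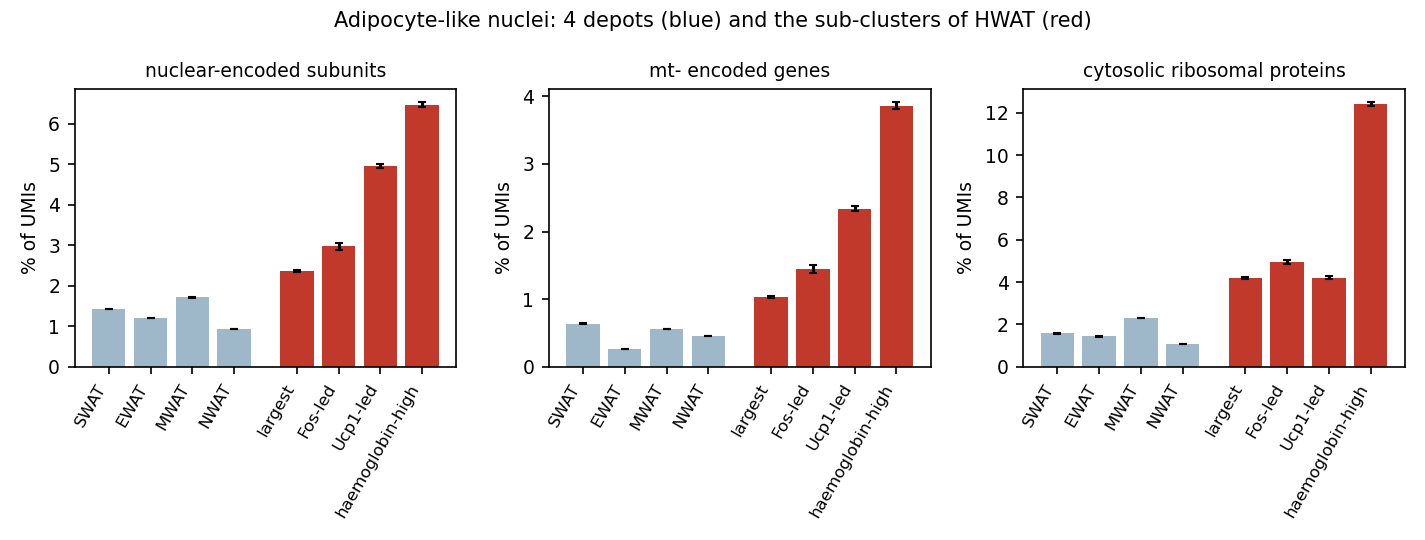
Bars give the share of UMIs taken by 80 nuclear-encoded subunits, 13 mt- genes and 77 cytosolic ribosomal protein genes in adipocyte-like nuclei of SWAT, EWAT, MWAT and NWAT (blue) and in the 4 HWAT sub-clusters (red). Error bars are 95% counting intervals. The haemoglobin-high sub-cluster is highest in all 3 panels, while the Ucp1-led one stands out for subunits (4.95%) and not for ribosomal proteins (4.22%).

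The Ucp1-led sub-cluster allowed a comparison within 1 library. It was chosen for Ucp1, with genes of brown adipocytes leading it. Brown-type markers summed to 5644 CPM there (7 of 7 detected) and 216 CPM in the other HWAT adipocyte-like nuclei (6 of 7 detected). Its cells are no replicates, so the values below are a description. The subunits took 49476 CPM there and 32364 CPM in the other HWAT adipocyte-like nuclei, a ratio of 1.53. Cardiomyocyte markers summed to 136 CPM in the Ucp1-led and 119 CPM in the other nuclei, and haemoglobin genes to 250 and 913 CPM. The mt- genes had a ratio of 1.43. Ribosomal proteins had a ratio of 0.713, with none of 77 above 1. The other nuclei pool the haemoglobin-high sub-cluster (12.4% ribosomal proteins, 6.47% subunits) with the rest, and every ratio here has this mixed reference. Beside the largest sub-cluster alone, ribosomal proteins were level, at 4.22% in the Ucp1-led nuclei and 4.20% in the largest. The subunits took 4.95% and 2.37% in the same order. Of 76 subunits with enough counts, 71 were above a ratio of 1, against 59.1% of all genes. A 2-fold excess was seen for 14, against 12.3% of all genes, and a 2-fold deficit for 2, against 10.1%. By complex the ratios of the sums were 1.52 for complex I, 1.70 for III, 1.67 for IV and 1.24 for V. The cycle enzymes differed more (ratio 3.23, 9 of 13 2-fold higher), and complex II had a ratio of 2.03.

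The 2 isoforms known from heart, muscle and brown fat led the sub-cluster. Cox7a1 stood at 560 CPM in the Ucp1-led nuclei and 42.1 CPM in the others, a ratio of 13.3 [10.8 to 16.4]. Cox8b stood at 1156 and 168 CPM, a ratio of 6.87 [6.13 to 7.69]. Core electron-carrying subunits came next. Ndufs1 was at 228 and 70.3 CPM (ratio 3.24 [2.61 to 4.02]), Uqcrfs1 at 157 and 49.2 CPM (3.18 [2.45 to 4.12]) and Uqcrc1, a core protein of complex III, at 229 and 82.6 CPM (2.78 [2.25 to 3.41]). Ndufs1 and Uqcrfs1 were among the subunits with the least HWAT excess over the other depots. Cox6b2, at 12.4 and 4.86 CPM, had a ratio whose interval included 1 (2.55 [0.937 to 6.41]). Both subunits with a 2-fold deficit belonged to complex V, the c-subunit gene Atp5g1 (85.3 and 256 CPM, 0.333 [0.248 to 0.438]) and the coupling factor gene Atp5j (222 and 462 CPM, 0.480 [0.401 to 0.570]). The ubiquitous Cox8a stood at 2097 and 2019 CPM, a ratio of 1.04 [0.979 to 1.10], so the isoform pair Cox8a and Cox8b did not move in parallel.

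For the complex IV isoforms the paired genes are shown by their promoters, the 250 bases before the annotated start (RefSeq, GRCm38.p6, read 5′ to 3′ on the gene's strand), because the ubiquitous and the tissue-restricted partner of a subunit lay at different levels in the same nuclei. Capitals mark the NRF1 motif (GCGCA, any base, then GCGC), where NRF1 is nuclear respiratory factor 1, a known regulator of such genes. The windows are Cox7a2 at chr9:79759854-79760103 (minus strand), Cox7a1 at chr7:30183921-30184170 (plus), Cox8a at chr19:7217617-7217866 (minus), Cox8b at chr7:140900447-140900696 (minus) and Cox6a1 at chr5:115348959-115349208 (minus).
Cox7a2: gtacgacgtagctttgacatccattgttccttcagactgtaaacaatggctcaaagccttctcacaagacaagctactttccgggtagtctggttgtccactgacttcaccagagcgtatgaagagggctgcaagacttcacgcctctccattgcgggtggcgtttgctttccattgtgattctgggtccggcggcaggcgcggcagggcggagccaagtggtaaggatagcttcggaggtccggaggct
Cox7a1: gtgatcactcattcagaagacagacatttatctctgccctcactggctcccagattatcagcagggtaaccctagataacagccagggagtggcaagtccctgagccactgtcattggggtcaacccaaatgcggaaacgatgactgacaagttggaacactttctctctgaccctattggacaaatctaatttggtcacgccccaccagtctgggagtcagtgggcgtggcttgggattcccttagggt
Cox8a: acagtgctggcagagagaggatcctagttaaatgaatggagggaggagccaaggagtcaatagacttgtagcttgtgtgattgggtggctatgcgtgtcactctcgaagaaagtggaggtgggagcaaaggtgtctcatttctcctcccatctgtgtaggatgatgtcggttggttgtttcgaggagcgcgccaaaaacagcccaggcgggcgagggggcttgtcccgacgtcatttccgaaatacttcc
Cox8b: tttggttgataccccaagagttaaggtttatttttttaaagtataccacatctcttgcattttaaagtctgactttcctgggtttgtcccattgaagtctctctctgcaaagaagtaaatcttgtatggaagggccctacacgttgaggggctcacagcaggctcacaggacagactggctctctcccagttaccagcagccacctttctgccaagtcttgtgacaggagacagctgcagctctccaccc
Cox6a1: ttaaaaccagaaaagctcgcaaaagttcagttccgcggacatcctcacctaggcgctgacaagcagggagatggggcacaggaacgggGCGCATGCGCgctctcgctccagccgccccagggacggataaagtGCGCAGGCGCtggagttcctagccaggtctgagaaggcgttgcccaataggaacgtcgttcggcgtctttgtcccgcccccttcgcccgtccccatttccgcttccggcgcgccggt

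The ubiquitous Cox6a1, printed without its partner Cox6a2, had the NRF1 motif 2 times in this window. In the complete pairs, Cox7a2 with Cox7a1 and Cox8a with Cox8b, neither gene had that motif in the printed bases. The printed windows of Cox7a2, Cox7a1 and Cox8b held none of the 4 motifs searched. Cox8a had the ETS motif in the longer window used for the counts below, in a match that runs past the end of the printed bases. GC content was 62.8% for Cox6a1, 54.8% for Cox7a2, 52.8% for Cox8a, 51.2% for Cox7a1 and 47.2% for Cox8b. Motifs were counted on both strands in windows of 300 bases (250 before to 50 after the start), which were at hand for 65 of the 80 subunits and for 27025 genes in all. The NRF1 motif was present for 14 subunits (21.5%), against 4.78% of all genes. The YY1 motif AAGATGGCG was present for 6 (9.23% against 1.49%), the ETS motif CCGGAAGT, bound by GABP, for 5 (7.69% against 4%) and the oestrogen-related receptor motif TCAAGGTCA for 1, Atp5g3 (1.54% against 0.407%). Any of the 4 was present for 23 subunits (35.4% against 9.99%). The median GC content was 57% over subunit promoters and 52.7% over all, and a match is a description of letters and not of binding.

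In adipocyte-like nuclei by depot, Cox8b, the heart, muscle and brown-fat isoform of the smallest subunit (chr7:140898945-140900446, GRCm38), spread more widely than Cox8a. It stood at 95.4 CPM in SWAT, 8.21 in EWAT, 71.5 in MWAT, 12.6 in NWAT and 339 in HWAT. HWAT was 3.56-fold [3.28 to 3.85] above SWAT, the next depot, and its depot differences were 1.26 in SWAT, -3.16 in EWAT, 0.74 in MWAT, -2.39 in NWAT and 3.55 in HWAT. Cox7a1, the corresponding isoform of subunit 7a (chr7:30184144-30186078), stood at 14.6 CPM in SWAT, 2.55 in EWAT, 6.60 in MWAT, 2.55 in NWAT and 132 in HWAT. HWAT was 9.01-fold [7.59 to 10.7] above SWAT, with a difference of 4.71. EWAT and NWAT were lowest for both genes, each with a Cox7a1 difference of -2.39. The ubiquitous Cox7a2 stood at 260.2 CPM in SWAT, 235 in EWAT, 372 in MWAT, 147 in NWAT and 671 in HWAT.

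Free RNA can place counts of an abundant gene in nuclei of other classes of the same library. In HWAT, Cox8b was found at 117 CPM in endothelial-like and 44.7 CPM in macrophage-like nuclei, and Cox7a1 at 59.6 and 14.5 CPM. In SWAT, Cox8b was at 87.6 CPM in endothelial-like and 79.2 CPM in FAP-like nuclei (FAPs are fibro-adipogenic progenitors of the stroma), close to the 95.4 CPM of its adipocyte-like nuclei. After thinning to 1000 UMIs per nucleus, a UMI of Cox8b was found in 58.4% of Ucp1-led nuclei (70.0% before thinning), 12.6% of the other HWAT adipocyte-like nuclei (20.0% before) and 8.23% of HWAT endothelial-like nuclei (10.2% before). For Cox7a1 the thinned shares were 33.9% of the Ucp1-led nuclei (53.0% before), 3.48% of the other adipocyte-like nuclei (5.95% before) and 4.53% of endothelial-like nuclei (6.54% before). In HWAT macrophage-like nuclei the thinned shares were 3.93% for Cox8b and 1.61% for Cox7a1. The thinning left out 26 of 283 Ucp1-led, 289 of 1581 other adipocyte-like and 139 of 382 endothelial-like nuclei, and median depths were 2149, 1814 and 1169 UMIs. Outside the Ucp1-led nuclei, Cox7a1 in HWAT adipocyte-like nuclei was therefore no higher than in the endothelial-like nuclei, though above the macrophage-like ones. Thinned shares of Cox8b in adipocyte-like and endothelial-like nuclei were 9.13% and 6.86% in SWAT, 6.15% and 2.79% in MWAT, 1.41% and 1.45% in NWAT and 0.903% and 0.249% in EWAT. In NWAT the adipocyte-like share was thus no higher than the endothelial-like one. The part of free RNA in these shares was not tested.

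Cox6a2, the heart and skeletal muscle isoform of subunit 6a (chr7:128205435-128206387), gave few counts in all. It had 2 counts in adipocyte-like nuclei of SWAT, 4 in EWAT, 0 in MWAT (where 3 counts, taken as the limit a count of 0 allows, are 0.550 CPM), 82 in NWAT (3.87 CPM) and 75 in HWAT (20.1 CPM). HWAT was 5.19-fold [3.74 to 7.19] above NWAT. The fitted differences, 5.85 in HWAT and 2.88 in NWAT against -2.49 in SWAT, -2.37 in EWAT and -3.88 in MWAT, depend on the 0.5 counts added. In HWAT, Cox6a2 stood at 49.7 CPM in endothelial-like and 39.0 CPM in FAP-like nuclei, above adipocyte-like nuclei, and at 13.1 CPM in macrophage-like and 12.5 CPM in mesothelial-like nuclei, below them. It did not differ beyond counting error between Ucp1-led and other adipocyte-like nuclei (21.7 and 19.8 CPM, ratio 1.10 [0.567 to 1.99]). The 6 cardiomyocyte markers summed to 122 CPM in HWAT adipocyte-like nuclei (6 of 6 detected) and 276 CPM in endothelial-like nuclei (4 of 6), against 0.714 to 9.54 CPM in adipocyte-like nuclei of the other depots. In NWAT the 194 skeletal-muscle-like nuclei held Cox6a2 at 737 CPM, and 6 of 6 skeletal muscle markers were found in adipocyte-like nuclei at 141 CPM in sum, against 12.6 to 27.1 CPM in the other depots. The part of muscle RNA in the Cox6a2 counts was not tested. Cox6a1, the ubiquitous partner, stood at 282 CPM in SWAT, 264 in EWAT, 296 in MWAT, 168 in NWAT and 661 in HWAT.

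**Figure D3:**
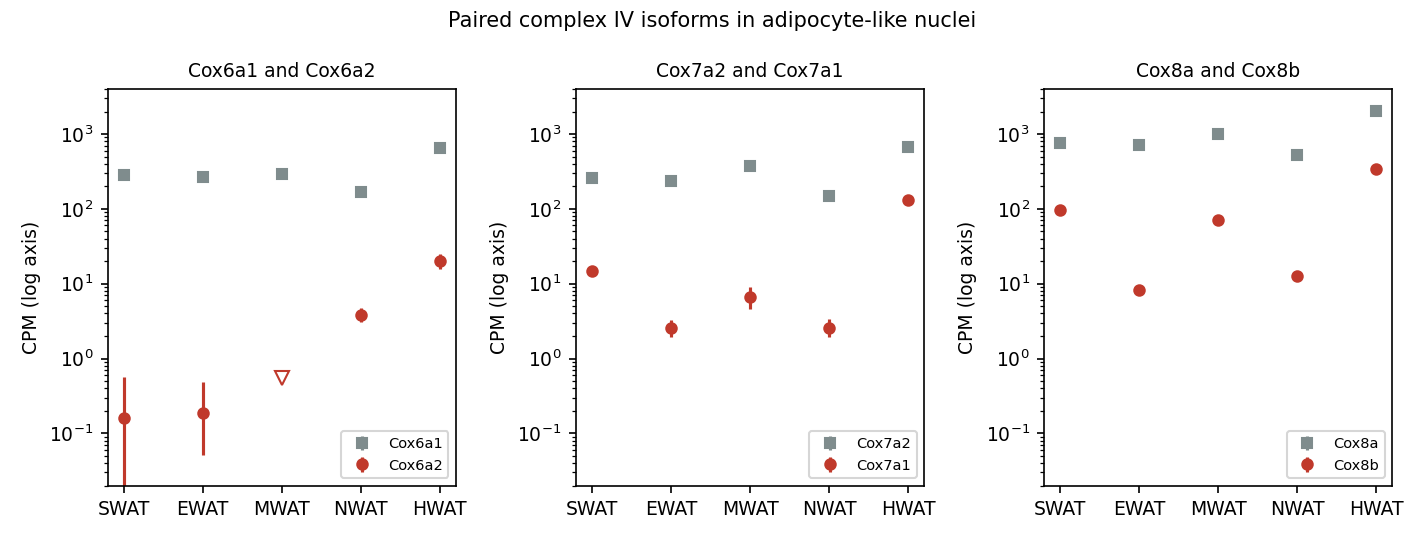
CPM in adipocyte-like nuclei by depot, on a log axis, for the ubiquitous isoform (grey squares) and the tissue-restricted isoform (red circles) of 3 complex IV subunits, with 95% counting intervals. The open triangle marks 3 counts, the limit taken for Cox6a2 in MWAT, which had 0 counts. The grey series stay within a few-fold while Cox8b runs from 8.21 to 339 CPM and Cox7a1 from 2.55 to 132 CPM.

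The remaining isoforms were low in adipocyte-like nuclei or followed their common partners. Cox6b1 stood at 352 CPM in SWAT, 307 in EWAT, 427 in MWAT, 223 in NWAT and 963 in HWAT, against 2.27 to 6.42 CPM for its testis isoform Cox6b2. Cox7a2l ranged from 38.8 CPM in EWAT to 93.2 CPM in HWAT, and Cox7b from 121 CPM in NWAT to 491 CPM in HWAT. Cox4i2, the isoform of subunit 4 linked to low oxygen, stood at 0.377 (EWAT) to 1.98 CPM (SWAT), on 4 to 28 counts per depot. Its SWAT difference of 1.06 and EWAT difference of -1.86 rest on those counts. Ndufa4l2, the paralogue of Ndufa4 that is induced in low oxygen, stood at 1.13 (EWAT) to 4.02 CPM (HWAT), with an EWAT difference of -1.37.

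Outside adipocytes, Cox4i2 and Ndufa4l2 had their highest levels in pericyte-like nuclei, where pericytes are the cells that wrap capillaries. In pericyte-like nuclei Cox4i2 stood at 227 CPM in SWAT, 213 in EWAT, 233 in MWAT, 257 in NWAT, with HWAT at 280 [175 to 423]. Ndufa4l2 stood at 556 CPM in SWAT, 497 in EWAT, 552 in MWAT, 533 in NWAT, with HWAT at 839 [649 to 1068]. Cox4i2 did not differ between depots beyond these intervals, while the HWAT interval of Ndufa4l2 lay above the values of the other 4 depots. HWAT had 57 such nuclei and the widest intervals. In pericyte-like nuclei Ndufa4l2 was of the order of its paralogue Ndufa4, at 538 to 915 CPM, while in FAP-like nuclei it stood at 12.9 to 22.7 CPM. Neither gene was used to name the class.

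The depot order held in part in other classes. In FAP-like nuclei the subunits took 1.44% of UMIs in SWAT, 1.05% in EWAT, 1.69% in MWAT, 0.974% in NWAT and 2.17% in HWAT. The HWAT median difference was 0.79, with 13 of 78 2-fold higher against 10.1% of all genes, and the NWAT median was -0.61, with 18 lower against 6.74%. In endothelial-like nuclei the shares were 2.33% in SWAT, 1.59% in EWAT, 2.27% in MWAT, 1.71% in NWAT and 2.28% in HWAT, and the HWAT median was 0.27, with 3 of 78 2-fold higher against 9.56%. In macrophage-like nuclei the shares were 1.51% in SWAT, 1.25% in EWAT, 1.64% in MWAT, 1.13% in NWAT and 1.66% in HWAT (HWAT median 0.23, 2 higher against 6.65%). Pericyte-like nuclei ranged from 2.04% in NWAT to 3.09% in SWAT and mesothelial-like nuclei from 10294 CPM in NWAT to 15017 CPM in HWAT. NWAT and EWAT held the 2 lowest shares in each of these classes. Ribosomal proteins had positive HWAT medians in FAP-like (1.23), endothelial-like (0.86) and macrophage-like nuclei (0.82) as well.

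**Figure D4:**
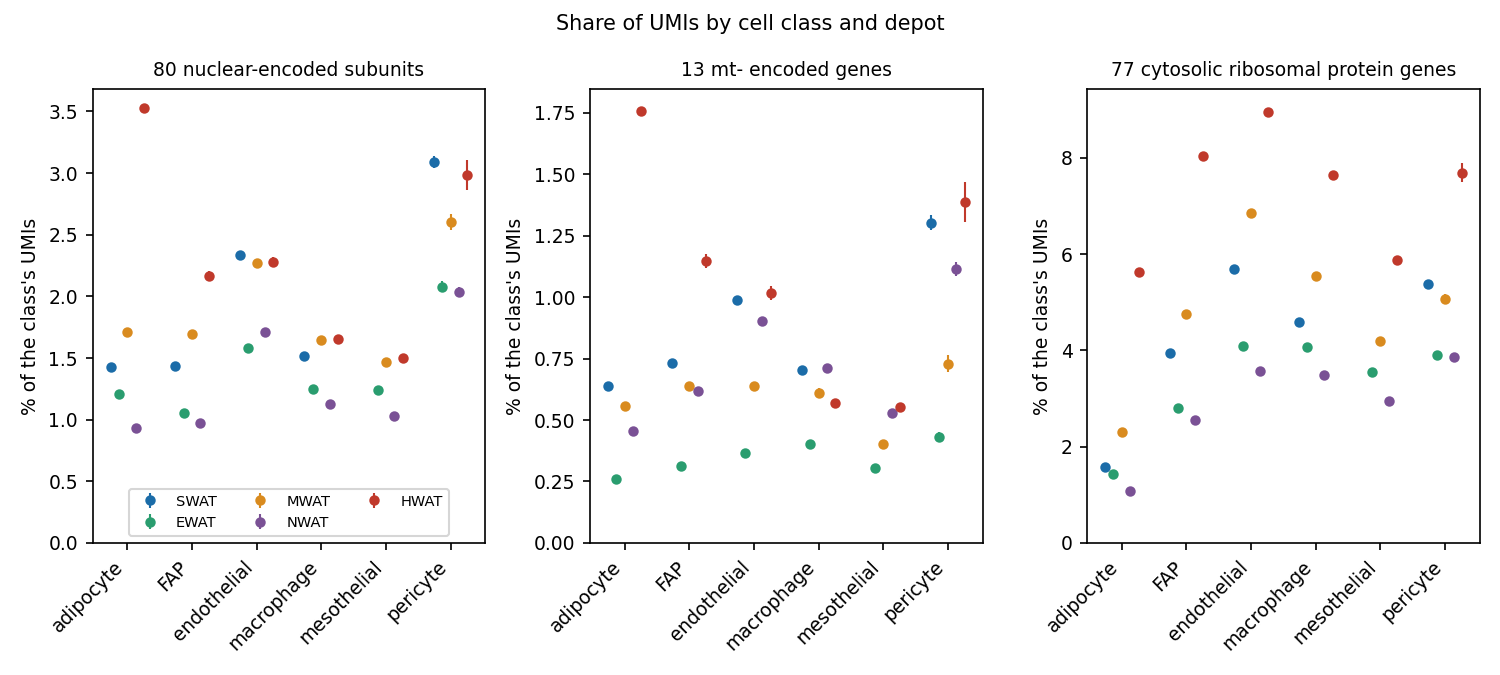
Share of a class's UMIs (percent) taken by the 80 subunits, 13 mt- genes and 77 ribosomal protein genes in 6 cell classes, with 1 point per depot and 95% counting intervals. In HWAT the adipocyte-like point for the subunits (3.53%) is set apart from the other depots, while the endothelial-like points of SWAT, MWAT and HWAT lie together at 2.27% to 2.33%.

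Of the named classes with at least 50 nuclei in a depot, the highest subunit share belonged to the 93 neuron-like nuclei of MWAT (5.53%), followed by HWAT adipocyte-like nuclei. Smooth-muscle-like nuclei of MWAT gave 2.75% and skeletal-muscle-like nuclei of NWAT 2.05%. Over 43 sums of a named class and depot, the summed CPM of the subunits followed that of the mitochondrial ribosomal proteins (Pearson r 0.95, Spearman rho 0.93) more closely than that of the mt- genes (r 0.52, rho 0.62) or the cytosolic ribosomal proteins (r 0.35, rho 0.57). These are descriptions across sums that share libraries and depth.

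Cell classes can be compared over the 5 libraries, since each library holds all of them. Counts of 4 classes in 5 libraries (20 sums) were fitted with edgeR's quasi-likelihood test, with the library as a term, and each class was set against the mean of the other 3. The libraries are 5 different depots of pooled mice, so the error in this test is the spread between depots and not between animals. Endothelial-like nuclei were the class with the most subunits up: 43 of 78 rose and none fell, against 28.1% and 31.1% of 13420 genes, with a median log2 fold of 0.38. Adipocyte-like nuclei had 25 up and 5 down, against 35.7% and 36.4% (median 0.22), and so a smaller share in each direction than genes at large. FAP-like nuclei had 1 up and 23 down, against 22.3% and 26.5% (median -0.34). Macrophage-like nuclei had 0 up and 26 down, against 28.9% and 33.2% (median -0.27). For FAP-like and macrophage-like nuclei the shares of subunits that fell were close to those of all genes. At an unadjusted p under 0.05, none of the subunits fell in endothelial-like nuclei and none rose in macrophage-like nuclei, and DESeq2 gave 0 for both as well. No mt- gene passed edgeR's test in any of the 4 classes, where 1 had an unadjusted p under 0.05 (higher in endothelial-like nuclei) and DESeq2 called 0. The adipocyte-like split of 25 up and 5 down was 15 and 7 with DESeq2, against 33.8% and 39.9% of all genes. It was 7 and 11 with total UMIs as the only scaling, against 28.5% and 44%, at a median of 0.02. That scaling moved the adipocyte-like median of all genes from -0.01 to -0.20.

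The adipocyte-like result rested on HWAT. Without that library the adipocyte-like median was -0.04, with 10 subunits up and 24 down, against 35.4% and 37.2% of all genes. Endothelial-like nuclei then had 69 up, against 28.7% of all genes, and FAP-like nuclei 48 down, against 23.5%. The mt- genes, with no call in 5 libraries, then had 9 of 13 up in endothelial-like nuclei and 7 down in adipocyte-like nuclei. The endothelial-like count was 21 without SWAT (27.3%, against 25.3% of all genes) and 26 without MWAT (33.3% against 25.8%). Without NWAT it was 18 (23.4% against 24.7%). It moved with each of these libraries and lay near the share of all genes without SWAT or NWAT, but never turned downward. The FAP-like count of 23 was 10 without EWAT (12.8%, against 19.5% of all genes) and 14 without MWAT (17.9% against 22.1%). Without NWAT it was 10 (13% against 19.7%). These FAP-like shares were below those of all genes, while the share without SWAT was level (24.7% against 24.8%). The macrophage-like count of 26 was 13 without SWAT (16.9% against 28.6%) and 15 without MWAT (19.2% against 30.2%), both below all genes. It was above all genes without EWAT (33.3% against 30.4%), NWAT (33.8% against 29.4%) or HWAT (39.7% against 33.9%). The adipocyte-like count of 25 was 16 without MWAT (20.5% against 34.2%) and 19 without EWAT (24.4% against 33.1%). It was 29 without SWAT (37.7% against 34.4%) or NWAT (37.7% against 32%).

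**Figure D5:**
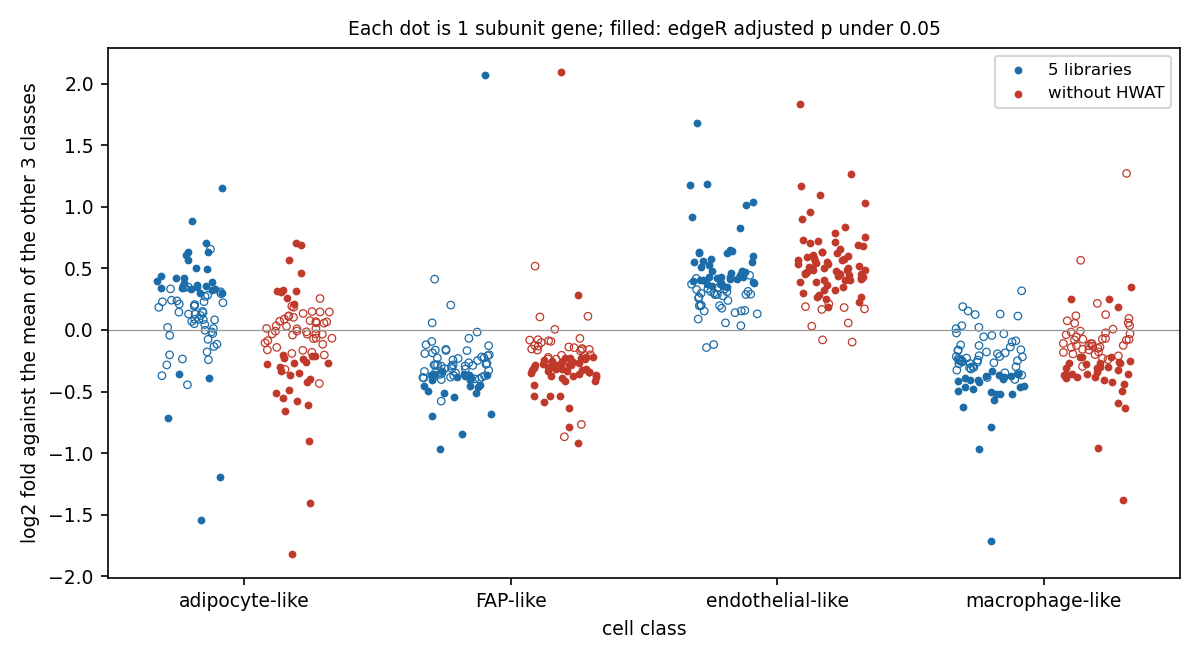
Log2 fold of each subunit gene in a class against the mean of the other 3 classes, from 5 libraries (blue) or without HWAT (red); filled dots passed edgeR's quasi-likelihood test at an adjusted p under 0.05. In the adipocyte-like column the red dots sit lower than the blue (median -0.04 against 0.22), and the endothelial-like column lies mostly above 0 in both.

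Within a depot, the same comparison of classes has 1 sum per class and no test. The median log2 difference of adipocyte-like nuclei from the mean of the other 3 classes was -0.28 in SWAT, -0.080 in EWAT, -0.083 in MWAT, -0.43 in NWAT and 0.80 in HWAT. Subunits above 0 numbered 17 of 77 in SWAT (46.1% of all genes were), 29 of 76 in EWAT (43.7%), 25 of 76 in MWAT (41.6%), 3 of 78 in NWAT (44.7%) and 72 of 77 in HWAT (38% of all genes). HWAT was thus the 1 depot in which adipocyte-like nuclei exceeded the other classes for most subunits. For endothelial-like nuclei the medians were 0.66 in SWAT, 0.42 in EWAT, 0.41 in MWAT, 0.73 in NWAT and -0.04 in HWAT.

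In endothelial-like nuclei Ndufa8, an accessory subunit of complex I, stood at 323 CPM in SWAT, 223 in EWAT, 283 in MWAT, 344 in NWAT and 284 in HWAT. In the other 3 classes it ranged from 63.8 to 194 CPM, so the groups did not overlap. Its log2 fold was 1.68 ± 0.15 (SE; edgeR adjusted p = 3.24e-08). Ndufc2, another accessory subunit, was at 437 to 654 CPM in endothelial-like nuclei and 139 to 593 CPM in the other classes, with a fold of 1.18 ± 0.14 (edgeR adjusted p = 1.28e-06). Cox6b2 (1.04 ± 0.24, adjusted p = 0.00135), Ndufa4l2 (1.19 ± 0.28, 0.00157) and Cox4i2 (1.02 ± 0.37, 0.0268) also rose by that edgeR test. For Cox4i2 and Ndufa4l2 the endothelial-like levels were 0.769 to 7.71 CPM and 3.08 to 16.9 CPM, far under those of pericyte-like nuclei.

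In adipocyte-like nuclei the subunits that rose most by the edgeR test were Cox8b (1.16 ± 0.22, adjusted p = 0.000138) and Ndufb3, an accessory complex I subunit (0.88 ± 0.12, 4.43e-06). Ndufb3 stood at 249 CPM in SWAT, 218 in EWAT, 246 in MWAT, 166 in NWAT and 419 in HWAT adipocyte-like nuclei, against 109 to 219 CPM in FAP-like nuclei and 116 to 161 CPM in macrophage-like nuclei. Those that fell most were Ndufa4l2 (-1.54 ± 0.30, 0.000172), Cox4i2 (-1.20 ± 0.38, 0.00906) and Atp5g1 (-0.71 ± 0.12, 2.96e-05). Atp5g1, 1 of 3 genes for the c-ring subunit of ATP synthase, stood at 66.1 CPM in SWAT, 80.2 in EWAT, 125 in MWAT, 53.5 in NWAT and 227 in HWAT adipocyte-like nuclei. It was higher in the endothelial-like sum of every depot, at 163 to 330.0 CPM. Atp5g1 was thus low in adipocyte-like nuclei as a class, and lower in the Ucp1-led nuclei than in the other HWAT adipocyte-like nuclei pooled.

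In FAP-like nuclei Ndufa4l2 was the 1 subunit that rose (2.07 ± 0.28, edgeR adjusted p = 8.37e-06), on 9 to 44 counts per depot (12.9 to 22.7 CPM). It rose in endothelial-like nuclei as well, at 3.08 to 16.9 CPM, and stood at 497 to 839 CPM in pericyte-like nuclei of the same libraries. Cox5a, the subunit with a thyroid hormone binding site, fell (-0.96 ± 0.18, 0.000227), as did the complex I subunits Ndufc2 (-0.84 ± 0.16, 0.000261), Ndufs8 (-0.70 ± 0.20, 0.00687) and Ndufa8 (-0.68 ± 0.17, 0.00372). In macrophage-like nuclei Ndufa4l2 (-1.72 ± 0.37, 0.000627), Cox8b (-0.96 ± 0.28, 0.00645), Cox6b2 (-0.79 ± 0.30, 0.0285), Ndufa8 (-0.63 ± 0.17, 0.00400) and Ndufb3 (-0.57 ± 0.13, 0.00141) fell by the edgeR test. Cox7a1 and Cox6a2 passed edgeR's test in none of the 4 classes, at adipocyte-like folds of 0.66 ± 0.35 (0.0977) and -0.44 ± 0.44 (0.382).

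Around the subunits, 10 of 13 cycle enzymes were up and 0 down in adipocyte-like nuclei by edgeR's test (median 0.79), where 35.7% and 36.4% of all genes were. Without HWAT 9 were up and 0 down (median 0.51). The difference between this list and the subunits was not tested. Assembly factors had 29 of 46 up and 3 down there (median 0.36), or 26 and 7 without HWAT, and complex II had 3 of 4 up. Cytosolic ribosomal proteins fell in adipocyte-like nuclei (76 of 77, median -1.06) and rose in endothelial-like (75 of 77) and macrophage-like nuclei (58 of 77). In endothelial-like nuclei the subunits and the ribosomal proteins thus rose together, while the cycle enzymes had 1 up and 2 down. In adipocyte-like nuclei 2 nuclear-retained RNAs also rose, with a median of 1.46, so the shares there are taken of a different mix of RNA.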

How the data were processed

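Nuclei of 5 depots were profiled with 10x 3' V3 chemistry, 1 library of pooled tissue per depot. The deposited matrices hold whole-number UMI counts per gene and barcode, which per the file headers the authors made in Cell Ranger 6.0.1. The submitters' processing notes give the build as mm10 and also name Seurat. The annotation release, and whether intronic or multi-mapped reads were counted, are not given in the sources used here, so subunits with pseudogene copies may gain or lose reads. Each library held 23313545 to 43855063 UMIs.

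Nuclei with under 200 genes or over 10% mitochondrial UMIs were removed (149 in all), as were predicted doublets at 0.8% per 1000 nuclei (9656). The 66235 nuclei left were clustered on 2000 variable genes without the subunits and mt- genes (40 components, 20 neighbours, Leiden resolution 1, sub-clusters 0.5, with numpy 2.4.6, scikit-learn 1.9.0 and leidenalg 0.10.2). A cluster was named where its best marker list had a mean log2 excess of at least 1, a lead of 0.5 and 3 markers, with no other class holding more of its top 10 genes. These thresholds were set after seeing the clusters, and the classes are rebuilt, not the authors'. The subunits and all gene lists were chosen with earlier results of these data known.

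UMIs were summed by class and depot and given as CPM, for sums of at least 50 nuclei. Depot differences used genes with 20 counts, 0.5 counts added, and a 2-fold limit. The class test was edgeR 4.0.16's quasi-likelihood test (TMM, library as a term, Benjamini-Hochberg adjusted p under 0.05), with DESeq2 1.42.0 as an alternative, and was tested on simulated data. Named subunits were the 2 of highest CPM per complex, up to 6 per depot with a log2 difference of at least 1 in size, 16 tissue isoforms, up to 5 called per class, up to 6 with the largest ratios in the Ucp1-led sub-cluster, and those at 0 counts. Positions were matched by gene ID to GENCODE (GRCm38, 80 of 80). Promoters came from RefSeq (65 of 80 matched).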

Additional observations from a re-analysis of the deposited data

Results flagged for a closer look

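The subunits' excess in adipocyte-like over the other 3 classes pointed 1 way in HWAT and the other way in the rest. The median log2 difference was 0.80 in HWAT, against -0.28 in SWAT, -0.080 in EWAT, -0.083 in MWAT and -0.43 in NWAT. With 1 library per depot this difference between depots was not tested.

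An unnamed cluster led by haemoglobin genes together with Fasn and Scd1, genes of fatty acid synthesis, lies outside the comparisons of classes. All 8 adipocyte markers were detected in it, at 8084 CPM in sum in SWAT, 6448 in EWAT, 6350 in MWAT and 12244 in NWAT, beside 9086 to 11540 CPM in adipocyte-like nuclei. In HWAT, nuclei with high haemoglobin counts were part of the adipocyte-like class. Its nuclei numbered 575 in MWAT, 495 in SWAT and 396 in EWAT, against 200 in NWAT and 27 in HWAT. The subunits took 5.78% of its UMIs in SWAT, 3.04% in EWAT, 6.23% in MWAT and 3.73% in NWAT, above every named class of the same depot. Its mt- share was 3.14% in SWAT, 1.13% in EWAT, 3.03% in MWAT and 2.64% in NWAT, and its ribosomal protein share 7.50%, 5.71%, 8.42% and 5.51% in the same order. HWAT had too few such nuclei for a value.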

How the results depend on the processing

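Of the alternatives to the depot and class results, 170 kept the direction and stayed near the reported value, 59 moved and 1 reversed. Each median or count was compared on its own, so these numbers leave out that the adipocyte-like class split turned from 25 up and 5 down to 10 and 24 without HWAT and to 7 and 11 with total UMIs only. The depot medians moved to -0.051 (SWAT), -0.35 (EWAT), -0.68 (NWAT, 21 lower) and 0.91 (HWAT, 27 higher) with at most 2% mitochondrial UMIs. Without both HWAT sub-clusters they were -0.014 (SWAT), -0.40 (EWAT), 0.25 (MWAT), -0.71 (NWAT) and 0.89 (HWAT, 25 higher). Without HWAT they were 0.20 (SWAT, reversed), -0.19 (EWAT), 0.49 (MWAT) and -0.50 (NWAT, 15 lower). TMM scaling gave -0.60 (EWAT), 0.0091 (MWAT) and 1.75 (HWAT). Doublet removal at 1.6% per 1000 nuclei gave 0.22 (MWAT), and the HWAT median was 1.58 with a free-RNA profile subtracted, 1.33 without the Ucp1-led and 1.18 without the haemoglobin-high sub-cluster. The cause of these shifts was not tested. The alternatives that drop sub-clusters or HWAT, and total UMIs as the only scaling, were chosen after seeing the data.

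Percentages in this paragraph are shares of all genes called in the same direction, beside counts out of 77 to 79 subunits. In the class test, adipocyte-like higher calls numbered 15 with DESeq2 (33.8%), 15 with RLE factors (33.5%) and 44 without the count filter (28%). They numbered 10 without doublet removal (33.3%, classes carried over from the reported clustering, 1908 HWAT nuclei). With free RNA subtracted they numbered 16 (33.7%), with total UMIs only 7 (28.5%), and with 1 library left out 10 to 29 (32% to 35.4%). Lower calls there numbered 3 without the filter (18.3%), 11 with total UMIs only (44%) and 10 without the haemoglobin-high sub-cluster (37.1%). With 1 library left out they numbered 2 to 24 (32.2% to 37.2%). For FAP-like nuclei, higher calls were 2 with total UMIs only (25.2%) and 1 to 2 with 1 library left out (18.2% to 24.4%). Lower calls in FAP-like nuclei were 37 without the filter (14.5%) and 13 with total UMIs only (20.7%). They were 10 to 48 with 1 library left out (19.5% to 24.8%). Endothelial-like higher calls were 18 to 69 with 1 library left out (24.7% to 28.7%). Macrophage-like higher calls were 1 with total UMIs only (30.9%) and 0 to 4 with 1 library left out (25.2% to 27.7%). Macrophage-like lower calls were 4 without doublet removal (29.2%) and 13 to 31 with 1 library left out (28.6% to 33.9%). The libraries pair the classes, since each library is the same pooled tissue. Without the library as a replicate block, adipocyte-like nuclei had 9 higher (30.1%) and 1 lower (28.9%), and FAP-like nuclei 3 lower (17.2%). Endothelial-like nuclei then had 8 higher (20.6%) and macrophage-like nuclei 6 lower (26.4%). Cox7b2 and Cox8c had 0 counts in adipocyte-like nuclei and could not be compared.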
